A study of Homo sapiens with 6 samples.

Results

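CTCF binding was examined in 11 stretches of the human genome that are known for blocks of segmental duplication, on chromosomes 1, 2, 5, 7, 8, 15, 16 and 22. A CTCF peak counted as a member when its midpoint lay in one of the 11 windows, which together span 31.8 Mb of hg19, or 1.08% of the span from the first to the last peak of all chromosomes. The wild-type list (WT) held 594 members among its 38645 peaks. Clone D3 had 845 of 57935 and clone E4 had 596 of 39434. After overlapping peaks of the 3 lists were merged, 877 of 60235 regions lay in the windows.

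All cells were HCT-116, a human colon cancer line, grown without treatment. WT cells are the wild-type population, and D3 and E4 are a pair of clones that the labels describe only as carrying a CTCF mutation; the kind of mutation is not stated, and each is a single clone. Each population gave 1 CTCF chromatin immunoprecipitation library. A library without antibody from each population was not analysed here, and the read depth behind the lists is unknown. With 1 library per population there is no test between populations, and the 95% intervals given here cover counting error only.

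CTCF is a zinc-finger protein that binds a long, well-defined DNA motif, stops loop-extruding cohesin and so anchors chromatin loops and domain boundaries. Segmental duplications are long stretches of sequence present in several nearly identical copies, and misaligned recombination between copies causes recurrent deletions and duplications such as those of Williams-Beuren syndrome at 7q11.23 and DiGeorge syndrome at 22q11.2. Short reads from such copies cannot always be placed, so a peak caller can miss a site in a copy or can pile the reads of several copies onto 1 of them.

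How alike copies can be is seen in the promoters of the blocks. The sequences come from RefSeq on GRCh38.p14, are given 5′ to 3′ on the gene's strand and cover the 250 bases upstream of the start. No genome of the files' own build was used, so no sequence is given at the peaks themselves. SERF1A (chr5:70900419-70900668, plus strand), a small protein-aggregation factor gene beside SMN1 in the 5q13 block, is shown with its copy SERF1B (chr5:70025001-70025250, plus strand), and the pair had no differing base over 250 bases. RABL2A (chr2:113627016-113627265, plus strand), a small GTPase gene at the edge of the 2q13 block, is shown with RABL2B (chr22:50783637-50783886, minus strand), and that pair differed at 3 of 250 bases, an identity of 98.8%. Capitals mark the differing bases.
SERF1A: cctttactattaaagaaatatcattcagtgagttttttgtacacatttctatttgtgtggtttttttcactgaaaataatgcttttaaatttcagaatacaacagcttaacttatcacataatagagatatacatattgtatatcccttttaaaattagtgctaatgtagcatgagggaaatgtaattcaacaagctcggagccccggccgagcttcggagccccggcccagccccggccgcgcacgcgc
SERF1B: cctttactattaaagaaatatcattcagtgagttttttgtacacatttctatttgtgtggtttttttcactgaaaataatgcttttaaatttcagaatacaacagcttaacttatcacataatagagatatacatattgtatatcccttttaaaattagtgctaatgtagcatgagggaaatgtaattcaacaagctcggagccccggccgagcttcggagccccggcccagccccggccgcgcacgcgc
RABL2A: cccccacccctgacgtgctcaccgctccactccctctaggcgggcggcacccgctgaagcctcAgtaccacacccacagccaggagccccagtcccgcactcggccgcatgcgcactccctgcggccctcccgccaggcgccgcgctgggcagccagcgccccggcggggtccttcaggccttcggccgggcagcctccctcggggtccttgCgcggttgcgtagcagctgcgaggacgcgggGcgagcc
RABL2B: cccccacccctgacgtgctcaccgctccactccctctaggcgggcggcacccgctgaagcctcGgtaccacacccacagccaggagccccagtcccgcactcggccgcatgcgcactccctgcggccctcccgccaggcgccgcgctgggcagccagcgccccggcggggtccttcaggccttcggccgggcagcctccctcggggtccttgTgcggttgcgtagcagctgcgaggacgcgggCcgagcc

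Promoters were searched for near-copies. A near-copy meant that at least 50% of the 25-base words of the upstream sequence also occurred in another promoter over 1 kb away. Whether that promoter belonged to another gene was not checked. For this search a block ran from the first to the last of its listed genes on GRCh38, not along its hg19 window. Of 490 promoters in the 9 blocks searched, 92 had a near-copy (18.8%, interval 15.4 to 22.5), against 783 of 34943 in the whole table (2.24%). Near-copies made up 26 of 77 promoters in the 15q13 block and 5 of 10 in the 5q13 block, but only 6 of 76 in the 22q11 block. The blocks thus hold different mixtures of copied and single-copy sequence.

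A pattern of letters like the core of the CTCF motif (CC, any 3 bases, AG, any 1 base and GGGC, on either strand) was found in 19 of the 490 block promoters (3.88%) and in 3.42% of all promoters of the same length. The share in the blocks lay close to that of all promoters. Of the 112 genes listed for the blocks, 91 had a promoter sequence, and 6 of these had the pattern. The promoters of TBX6 (chr16:30091925-30092174, minus strand), a T-box regulator of somite formation, and CHD1L (chr1:147242434-147242683, plus strand), a chromatin remodeler of DNA repair, are shown as examples. Regions in all 3 lists lay within 10 kb of both genes, and also of HERC2, OTOA and RTN4R among the 6, but not of EIF3C. Such regions lay near 83 of all 112 listed genes, so they were common with or without the pattern. Capitals mark the match, and a match of letters does not show that the site is bound.
TBX6: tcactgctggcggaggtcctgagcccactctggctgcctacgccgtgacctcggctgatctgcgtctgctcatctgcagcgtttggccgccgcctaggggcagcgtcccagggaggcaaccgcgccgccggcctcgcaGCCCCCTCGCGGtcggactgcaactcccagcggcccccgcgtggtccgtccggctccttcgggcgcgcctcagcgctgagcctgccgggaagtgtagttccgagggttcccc
CHD1L: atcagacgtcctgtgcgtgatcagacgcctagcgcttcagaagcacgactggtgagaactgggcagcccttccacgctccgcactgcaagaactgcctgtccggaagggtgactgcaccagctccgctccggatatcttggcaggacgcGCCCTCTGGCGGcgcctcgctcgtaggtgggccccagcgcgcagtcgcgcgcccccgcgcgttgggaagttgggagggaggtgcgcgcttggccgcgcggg
Near TBX6, the stronger of 2 shared regions (chr16:30102651-30104752 in hg19) had fold enrichments over background of 14.92 (D3), 17.35 (E4) and 8.70 (WT). Near CHD1L, the stronger of 2 shared regions (chr1:146713594-146715365 in hg19) had folds of 14.08, 11.15 and 11.84 in the same order. Fold enrichment is the authors' own value for each peak, and it moves with the depth of a library. Folds are therefore printed as each library's own values, and libraries are compared by rank within each list.

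Peaks were denser in the blocks than elsewhere in all 3 lists. The length elsewhere includes centromeres and other sequence where no peak can be called, which lowers the density elsewhere. D3 had 26.6 peaks per Mb in the blocks and 19.5 elsewhere, a ratio of 1.36 (interval 1.27 to 1.46). E4 had 18.7 against 13.3 peaks per Mb, a ratio of 1.41 (1.30 to 1.53). WT had 18.7 against 13.01, a ratio of 1.44 (1.32 to 1.56). The 3 ratios lay within each other's intervals, and the excess was seen in the clones and in WT alike.

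The blocks differed far more from each other than the libraries did. In 8 of the 11 blocks the interval of the density ratio lay above 1 in all 3 lists. The 1p36 block, 0.5 Mb around the NBPF1 and MST1L genes, was the densest, with 37 (D3), 24 (E4) and 29 (WT) peaks, or 3.79, 3.62 and 4.46 times the density elsewhere, and 1.64, 1.75 and 2.11 times that of its own flanks. The flanks of the blocks were dense too: against the 2 Mb on each side, a comparison chosen after seeing the data, the density ratios over all blocks were 1.18 (D3), 1.26 (E4) and 1.20 (WT).

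**Figure D1:**
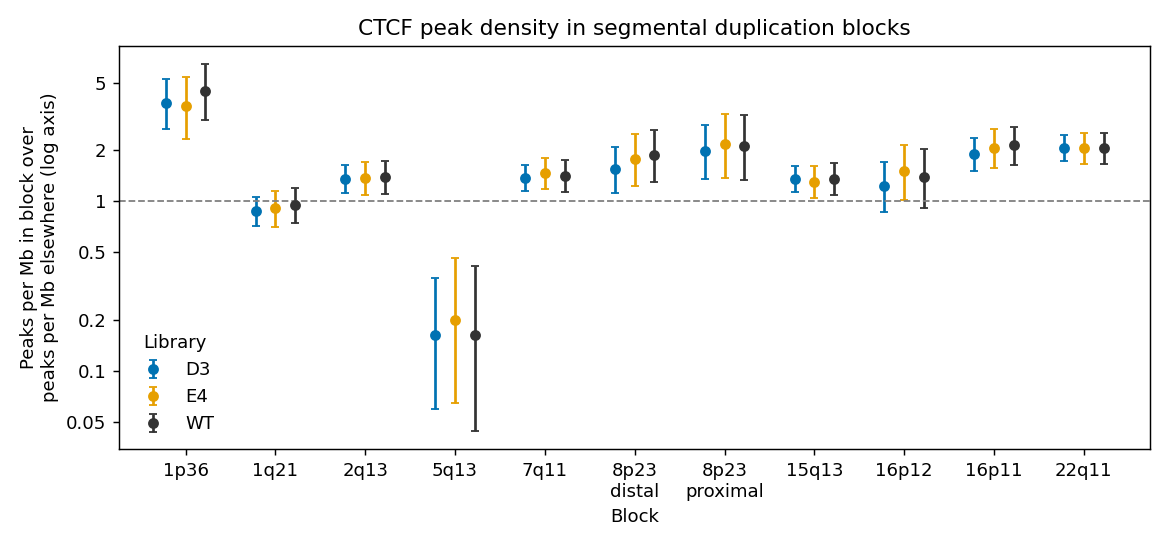
Peaks per Mb in each of the 11 blocks divided by peaks per Mb elsewhere in the same list (vertical axis, log scale), for D3, E4 and WT; points are ratios and bars are exact 95% intervals that cover counting error only. The 1p36 block lies highest at 3.62 to 4.46, and the 5q13 block lies lowest at 0.16 to 0.20.

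The 22q11 block, the deletion region of DiGeorge syndrome, held 133 peaks in the D3 list, 90 for E4 and 88 for WT, with ratios of 2.07, 2.05 and 2.05. The 16p11 block held 81, 60 and 61 peaks, with ratios of 1.89, 2.05 and 2.13. The proximal 8p23 block held 31, 23 and 22 peaks, with ratios of 1.99, 2.17 and 2.11. Against the genome these 3 blocks had about the same excess, but against their own flanks of 2 Mb on each side they did not. There the 22q11 block was at 1.07 in D3 (interval 0.839 to 1.36), 0.894 in E4 (0.673 to 1.18) and 0.860 in WT (0.647 to 1.14), so block and flanks did not differ beyond counting error. The ratios to the flanks were 1.35, 1.42 and 1.32 for 16p11 and 2.04, 2.30 and 2.0 for proximal 8p23.

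A middle group had smaller excesses. The distal 8p23 block, which holds the beta-defensin genes, had 42, 33 and 34 peaks in that order, and ratios of 1.54, 1.78 and 1.87. The 7q11 block had 126, 91 and 86 peaks (1.37, 1.46 and 1.41), and the 2q13 block had 119, 82 and 81 (1.36, 1.37 and 1.38). The 15q13 block had 132, 86 and 88 peaks (1.35, 1.30 and 1.35). The 16p12 block had 36, 30 and 27 peaks, and its interval lay above 1 only in E4 (1.51, interval 1.02 to 2.15), with ratios of 1.23 in D3 and 1.38 in WT. Against their own flanks, which held few peaks, the 2q13 block was at 2.52, 3.17 and 2.88 and the 7q11 block at 2.19, 2.58 and 2.82. The 15q13 block was at 1.82, 2.08 and 1.76, the distal 8p23 block at 1.71, 2.69 and 2.07, and the 16p12 block at 0.970, 1.13 and 1.09.

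The 1q21 block is the longest, at 6 Mb, and its density did not differ from that elsewhere beyond counting error. It held 102, 72 and 74 peaks in D3, E4 and WT, with ratios of 0.87 (interval 0.71 to 1.06), 0.90 (0.71 to 1.14) and 0.95 (0.74 to 1.19). A stretch of 0.507 Mb in it (chr1:148599075-149105575) had no peak in any list, and 25.9% of the block lay in peak-free stretches over 200 kb. Over all 11 blocks 13.9% of the length lay in such stretches, against 26.2% of the whole span. These shares are not measured alike. Gaps in the blocks were cut at the window edges, while the whole span includes centromeres and unsequenced gaps and was not cut.

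The 5q13 block, which holds the survival motor neuron genes SMN1 and SMN2, was the exception at the other end. D3 had 6 peaks in its 1.9 Mb, E4 had 5 and WT had 4, or 0.16 (interval 0.06 to 0.35), 0.20 (0.06 to 0.46) and 0.16 (0.04 to 0.41) times the density elsewhere. Peak-free stretches over 200 kb made up 70.8% of the block, the longest of them 0.773 Mb (chr5:68923720-69696607). The flanks of 2 Mb on each side of the block held 77, 54 and 52 peaks, so the low count did not extend to the flanks. Whether reads that fit several copies were discarded there is not given in the sources used here, and its part in the low count was not tested.

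Of the 7 regions of the 5q13 block, 4 were called in all 3 lists, and these held all 4 WT peaks. At chr5:68855307-68856280, near OCLN, which encodes the tight-junction protein occludin, folds were 11.9 in D3, 9.73 in E4 and 12.3 in WT. At chr5:69696608-69697584 they were 12.1, 19.4 and 7.05, and at chr5:69881778-69882307 they were 12.43, 11.01 and 6.73. The region at chr5:70585581-70586293 stood above these, with folds of 50.20, 30.13 and 15.63, and its D3 peak was the strongest of all 57935 in that list. The other 3 were weaker: 2 called in D3 only, at percentiles of −log10 q of 13.05 and 45.2 within the list (folds of 3.61 and 5.61), and 1 called in E4 only, at 31.3 (fold of 5.01).

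Each block was then split, from general knowledge of hg19 and only roughly, into stretches rich in duplicated copies (18.7 Mb) and the rest (13.1 Mb). Most of the excess in number lay in the rest. The duplicon-rich stretches held 392 (D3), 277 (E4) and 266 (WT) peaks, which is 1.07 (interval 0.970 to 1.19), 1.12 (0.988 to 1.26) and 1.09 (0.966 to 1.23) times the density elsewhere. The rest held 453, 319 and 328 peaks, or 1.77 (1.61 to 1.94), 1.83 (1.64 to 2.05) and 1.93 (1.72 to 2.15) times. Pooled over the blocks, duplicon-rich stretches had 0.61, 0.61 and 0.57 times the density of the rest. These ratios partly set different blocks against each other and are not contrasts within blocks.

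**Figure D2:**
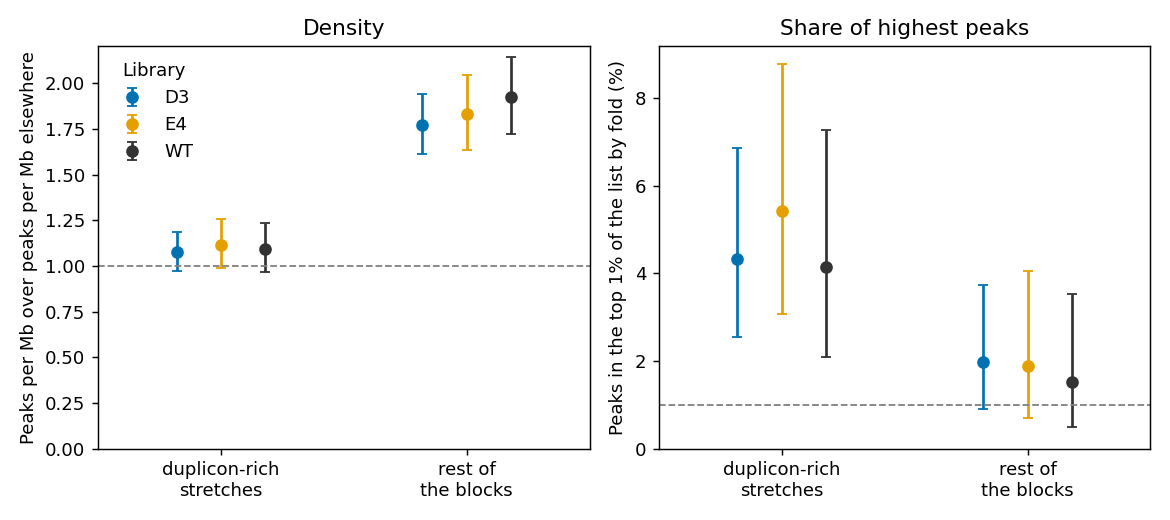
Density relative to elsewhere (left) and percentage of member peaks in the top 1% of their list by fold (right), for duplicon-rich stretches and the rest of the blocks in D3, E4 and WT; bars are exact 95% intervals for counting error. Density was higher in the rest of the blocks (1.77 to 1.93) and near 1 in the duplicon-rich stretches, while the share of top peaks was higher in the duplicon-rich stretches (4.14% to 5.42%).

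At the very top of the lists the order was the other way round. Of the members, 26 in D3 (3.08%, interval 2.02 to 4.48), 21 in E4 (3.52%, 2.19 to 5.34) and 16 in WT (2.69%, 1.55 to 4.34) were among the top 1% of their list by fold, where 1% of all peaks stand by construction. In the duplicon-rich stretches those were 17 peaks in D3 (4.34%, 2.55 to 6.85), 15 in E4 (5.42%, 3.06 to 8.77) and 11 in WT (4.14%, 2.08 to 7.28). In the rest of the blocks they were 9 (1.99%), 6 (1.88%) and 5 (1.52%), and all 3 intervals there reached 1%. A difference between both kinds of stretch was in the same direction in each list, but their intervals overlapped.

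The share of block peaks was largest at the head of each list and fell further down. Of the 10 highest folds the blocks gave 4 for D3, 3 for E4 and 2 for WT. They gave 7, 8 and 3 of the highest 50, all of them in duplicon-rich stretches, and 34, 35 and 34 of the highest 1000. By comparison, members were 1.46%, 1.51% and 1.54% of the whole lists. Read pile-up from copies onto 1 site would raise a fold in the same way as strong binding, and which of these applies was not tested.

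**Figure D3:**
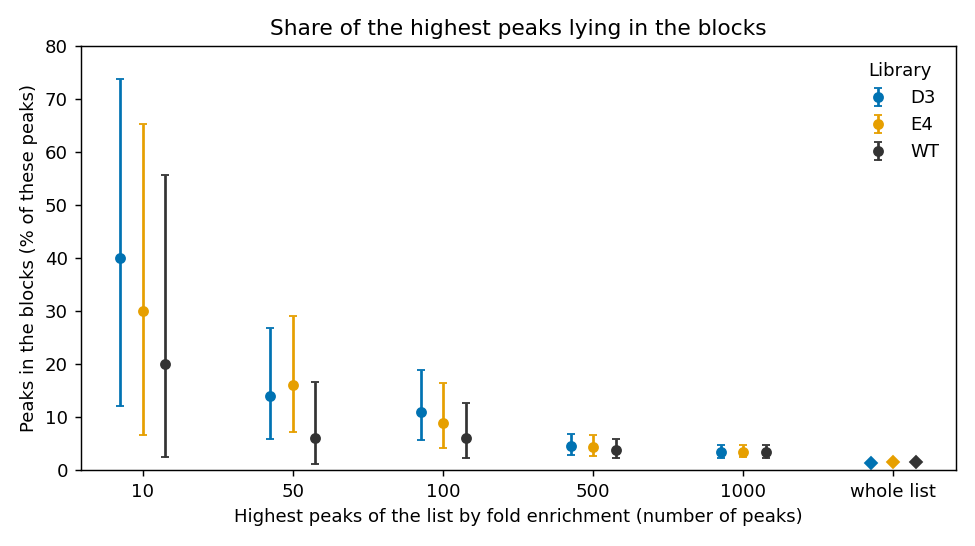
Percentage of the strongest peaks of each list, ranked by fold, that lay in the blocks (vertical axis) for the top 10, 50, 100, 500 and 1000 peaks (horizontal axis, evenly spaced classes), in D3, E4 and WT; bars are exact Clopper-Pearson 95% intervals and diamonds give the whole list. The share was 20% to 40% among the top 10 and 3.4% to 3.5% among the top 1000.

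The sites of highest fold recurred between libraries. Of the 877 block regions, 35 were in the top 1% of at least 1 list, 20 of at least 2 lists and 8 of all 3, while over all 60235 regions those numbers were 996, 296 and 67. Of the 8, the distal 8p23 block gave 2 (4.55% of its 44 regions), and 1p36, 1q21, 2q13, 5q13, proximal 8p23 and 16p11 gave 1 each. None lay in 7q11, 15q13, 16p12 or 22q11.

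The 9 regions that held any list's 5 strongest members were all in duplicon-rich stretches. The site at chr16:28761184-28761954, in the 16p11 block, had folds of 34.5 (D3), 31.8 (E4) and 25.9 (WT), and was the strongest peak of the whole WT list. At chr2:114361371-114362372, in the 2q13 block, folds were 31.6, 26.8 and 24.5, the second strongest in WT. At chr8:12458070-12460171, in the proximal 8p23 block, they were 35.6, 31.2 and 19.4. All 3 sites were in the top 1% of each list.

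The distal 8p23 block held 3 of the 9 within a short distance of each other. At chr8:7378450-7379375 folds were 47.12 in D3, 28.11 in E4 and 15.03 in WT. At chr8:7326728-7327776, by SPAG11B, an epididymal gene of the beta-defensin cluster, they were 38.6, 17.7 and 13.8. At chr8:7467996-7469501 they were 28.98, 39.37 and 16.59, the strongest peak of the E4 list. The clones thus differed in which of these sites ranked first.

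Next to MST1L, a copy related to the macrophage-stimulating protein gene, the 1p36 site at chr1:17075386-17077797 had folds of 22.78 (D3), 33.42 (E4) and 13.22 (WT). In the 1q21 block, chr1:147553350-147553956 had folds of 27.91, 12.02 and 16.04, which put it in the top 1% of D3 and WT and outside it in E4. Every block had at least 1 region called strongly in all 3 lists. The weakest of those leading regions, at chr16:21565721-21567015 in the 16p12 block, still had folds of 15.2, 14.9 and 9.89.

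**Figure D4:**
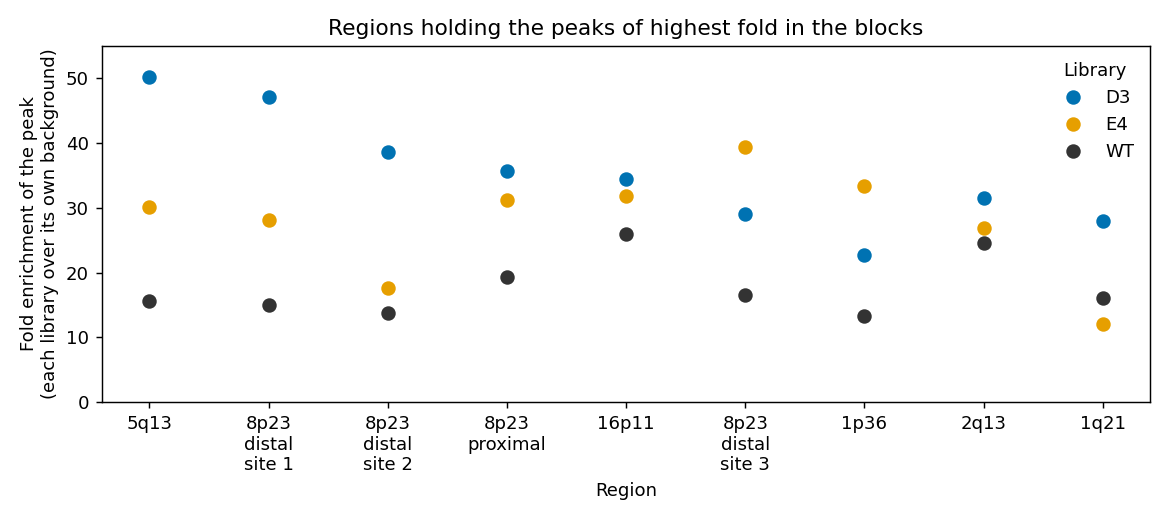
Fold enrichment in D3, E4 and WT (vertical axis, 1 point per library, no error bar) at the 9 regions that held the 5 members of highest fold of any list, each named by its block (horizontal axis). Folds ran from 12.02 (E4, 1q21) to 50.20 (D3, 5q13), beside median folds outside the blocks of 6.29 (D3), 6.34 (E4) and 5.24 (WT).

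A typical peak of the blocks ranked slightly above the middle of its list. Peaks were ranked within each list by −log10 of the q value, so that a typical peak has a percentile of 50. The median percentile of the members was 52.9 in D3 (interval 49.5 to 56.6), 53.9 in E4 (50.5 to 59.8) and 54.8 in WT (50.5 to 60.0). Members with −log10 q under 5, the weak end of the lists, made up 30.2%, 30.5% and 42.4%, against 32.5%, 34.2% and 47.0% elsewhere.

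Between blocks the medians ran from 40.1 to 84.7 in D3. The 5q13 block, with its few peaks, had the highest in every list, at 84.7 (interval 13.05 to 100), 83.0 (31.3 to 99.99) and 89.5 (67.9 to 99.95). The distal 8p23 block came next in all 3 lists, with 70.4 in D3 (interval 49.5 to 84.4), 78.2 in E4 (50.5 to 89.7) and 77.8 in WT (61.9 to 87.7). In the 16p11 block it was 65.0, 64.8 and 70.3. The 15q13 block was on the weak side, at 46.6, 44.6 and 43.8, although its interval reached 50 in each list. No block had an interval above 50 in all 3 lists, and none had one below 50 in any.

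**Figure D5:**
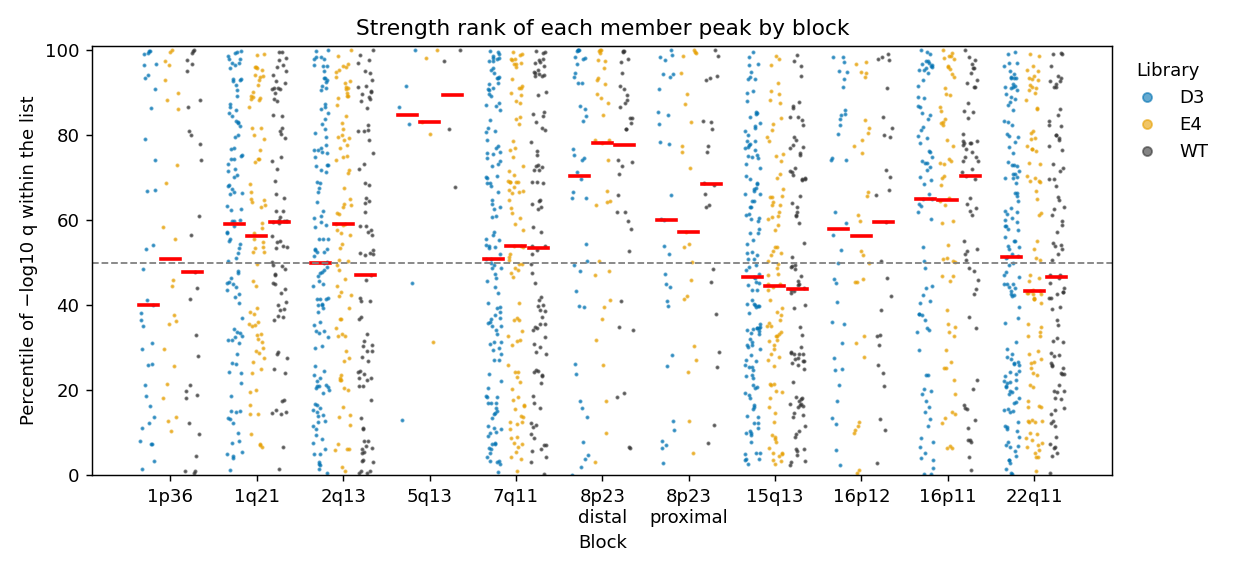
Percentile of −log10 q within its own list (vertical axis) for every member peak of D3, E4 and WT by block; each point is a peak, red bars are medians and the dashed line marks 50. Most blocks spread over the whole range, the distal 8p23 medians lie at 70.4 to 78.2, and the 5q13 block has only 4 to 6 peaks per list.

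Peak widths in the blocks were close to those elsewhere. The median width was 912 (D3), 782 (E4) and 679 bp (WT) in the blocks, and 872, 749 and 639 bp elsewhere. When each list was cut into 4 equal strength classes by −log10 q, the ratio of median widths within a class ran from 0.905 to 1.05 over the 3 lists. The 15q13 peaks were narrow, with medians of 746, 676.5 and 553.5 bp. In 5 of the blocks the median was above that elsewhere in all 3 lists.

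Wide peaks were a matter of single sites. The widest in D3 was 4823 bp at chr15:32266046-32270868, where the peaks of E4 and WT spanned 581 and 585 bp. In the 1p36 block E4 had peaks of 3971 and 3828 bp, and the widest WT peak, 3767 bp, lay in the distal 8p23 block at chr8:8034539-8038305. Regions called in all 3 lists were wider in D3 than in WT in 462 of 506 cases (91.3%, against 90.9% of all such regions). They were wider in E4 than in WT in 345 (68.2%, against 67.5%). The blocks thus shared the direction of the whole lists. The median width ratio of D3 to WT was lower in the blocks, at 1.47 against 1.61 elsewhere. For E4 to WT it was 1.18 against 1.17.

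Most WT peaks of the blocks were also called in the clones. D3 overlapped 573 of 594 WT members (96.5%, interval 94.7 to 97.8), leaving 21 without a D3 peak (3.54%, against 4.05% of all WT peaks). E4 overlapped 516 (86.9%, 83.9 to 89.5), leaving 78 (13.1%, against 14.3%). Neither clone overlapped 18 WT members (3.03%, interval 1.81 to 4.75, against 3.69%). The shares in the blocks thus lay at the level of the whole WT list. The WT library is common to both comparisons. With every list shortened to the 38645 strongest peaks by −log10 q, the overlap was 86.5% in D3 and 86.7% in E4, and 53 WT members were in neither (8.92%, against 8.50% of all WT peaks). The clones then overlapped WT to the same extent within their intervals (83.5 to 89.2 and 83.7 to 89.3).

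The missing peaks were weak. In the strongest of 4 equal classes of WT peaks by −log10 q, all 185 members were overlapped in D3 and all 185 in E4. In the weakest class, D3 overlapped 118 of 137 members (86.1%) and E4 79 of 137 (57.7%), close to the 85.0% and 58.5% elsewhere. None of the 18 members that both clones lacked had −log10 q of 5 or more. The strongest of them lay at chr16:29749070-29749339 (−log10 q of 2.66), and another of the 3 strongest lay at chr1:147183015-147183357 (2.24). Duplicon-rich stretches and the rest of the blocks were alike, with 96.2% and 96.6% overlapped in D3 and 87.6% and 86.3% in E4.

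In the other direction, 280 D3 members had no WT peak (33.1%, against 36.9% of the D3 list), and 81 E4 members had none (13.6%, against 16.6%). By merged region, 506 of 877 were called in all 3 lists (57.7%, interval 54.3 to 61.0, against 53.9% of all regions). D3 alone gave 212 (24.2%, against 26.1%), and both clones without WT gave 68 (7.75%, against 9.31%). D3 with WT gave 58 (6.61%, against 6.62%), WT alone 18 (2.05%, against 2.37%), E4 alone 12 (1.37%, against 1.45%) and E4 with WT 3 (0.342%, against 0.216%). Apart from the slightly larger share called in all 3 lists, the blocks followed the genome, and D3 also has the longest list by far.

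The strongest regions called in D3 and E4 but not in WT were of middling rank. At chr22:21474180-21474631 the percentile of −log10 q was 51.5 in D3 and 61.8 in E4, and at chr7:75271911-75272815, by HIP1, a clathrin-associated protein gene, it was 60.9 and 49.7. At chr22:19788203-19789134 it was 53.1 and 43.3. Another pair lay a few kb apart in 2q13, at chr2:110733876-110734316 (58.4 and 44.4) and chr2:110738307-110739045 (53.2 and 49.4). Each percentile lay between 43.3 and 61.8, well inside its list.

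Among the 506 regions called in all 3 lists, ranks within the shared set were set side by side. The median difference WT minus D3 was 0.149 percentile points (interval −0.963 to 1.17), and WT minus E4 was −0.472 (−1.62 to 0.360). Differences over 20 points were found in 117 regions for D3 (23.12%, against 26.3% of all shared regions) and in 124 for E4 (24.5%, against 27.2%). Block regions thus changed rank about as often as others.

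The 2q13 block was the one block whose interval excluded 0 for either clone. There the median of WT minus E4 was −6.63 points over 69 regions (interval −11.1 to −0.649), with WT ranking higher in 23 of them, while WT minus D3 was −3.15 (−7.23 to 2.35). For scale, the central 95% of 529 bins of 5 Mb elsewhere ran from −6.81 to 10.3 for E4, so the 2q13 value was just inside that range. Intervals were made for 11 blocks and both clones with no allowance for their number, so 1 of them can exclude 0 by chance.

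Single regions moved much further than any block. At chr7:73115389-73116646, by the syntaxin gene STX1A, folds were 13.6 (D3), 6.47 (E4) and 4.12 (WT), and the WT rank was 57.4 points below that of D3. At chr16:22110110-22110987, in the 16p12 block, folds were 11.96, 9.89 and 3.93, and WT ranked 52.9 points below D3 and 58.6 below E4. At chr2:113949852-113950853 they were 11.24, 4.25 and 3.73, a shift of 53.5 points against D3 alone. The 16p12 site thus ranked higher in both clones than in WT, and the 2q13 site in D3.

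Other regions ranked higher in WT. At chr1:144535057-144535823 the rank was 61.6 points higher in WT than in D3 and 5.40 higher than in E4. At chr22:21581328-21581972 WT ranked 53.8 points above D3 and 40.0 above E4, with folds of 3.56, 4.86 and 6.34 in D3, E4 and WT. Against E4 the largest shifts were 49.3 points at chr8:7718953-7721415, 49.3 at chr15:30234240-30234995 and 49.2 at chr16:29721500-29722405. With 1 library per population, clonal, technical and mutation-related differences cannot be told apart at these sites.

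Genes known from the blocks were placed by approximate hg19 windows, extended by 10 kb, since no annotation of that build was used; their names were matched to the RefSeq table for 112 genes, 2 more being left out as unmatched, and their order held in 10 of 11 blocks. Of the 112, 84 had a peak in all 3 lists, 19 had none in any, and 9 had one in some lists. Only peaks inside the blocks were counted, so genes at or past a block's edge, such as GREM1 and MFAP2, could lack one for that reason. D3 had a peak at 93 genes, E4 at 85 and WT at 85. The highest fold and the best percentile of a gene were taken in each list separately. Where a gene has several peaks, the values of the 3 lists need not belong to the same site. In 7 of the 9 the peak was in D3 only, all of them weak: CLDN3, LIMK1, POR, LONRF1, EIF3C, HIRA and CLDN5 had D3 folds of 3.25 to 4.99.

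In 5q13, of 6 genes only OCLN had a peak. SMN1 and SMN2, whose loss and copy number set the severity of spinal muscular atrophy, NAIP, an inflammasome sensor, GTF2H2, a subunit of the transcription and repair factor TFIIH, and SERF1A had none in any list. Of the 91 listed genes with a promoter sequence, 4 had a near-copy: SERF1A, GTF2H2, RABL2A and POM121. POM121, in 7q11, had 4, 3 and 3 peaks in D3, E4 and WT, and the others had none. A link between near-copies and missing peaks was not tested. In 2q13, 8 of 13 genes had a region called in all 3 lists, and the neighbouring cytokine genes IL1A and IL1B had no peak, nor did FOXD4L1 or RABL2A.

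In 22q11, 17 of 19 genes had a shared region. Of its 140 regions, 74 were called in all 3 lists (52.9%, against 53.9% of all regions). TBX1, the T-box gene linked to the heart defects of DiGeorge syndrome, had 5, 4 and 4 peaks in D3, E4 and WT, with highest folds of 9.22, 10.3 and 5.84. The adaptor gene CRKL had 3 peaks in each list with highest folds of 9.36, 20.6 and 12.5, and MED15, a Mediator subunit gene, had highest folds of 24.0, 7.06 and 14.6. By rank of −log10 q, the best CRKL peak stood at percentile 90.6 (D3), 98.5 (E4) and 99.02 (WT), and the best MED15 peak at 99.5, 86.2 and 99.25.

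In 16p11, 16 of 19 genes had a shared region, and TAOK2, a kinase gene, had no peak. MAPK3, which encodes the kinase ERK1, had 1 peak per list with folds of 16.1, 14.8 and 7.38. MVP, the major vault protein gene, had highest folds of 17.1, 20.1 and 9.86, and QPRT, of NAD synthesis, had 20.5, 17.1 and 10.3. ALDOA, the glycolytic aldolase, had highest folds of 17.9, 5.81 and 7.14, with best percentiles of 96.3, 50.3 and 74.97. KCTD13, a ubiquitin ligase adaptor gene, had a single weak peak per list, with folds of 3.52, 4.79 and 3.67.

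In 7q11, 13 of 17 genes had a shared region. At ELN, the elastin gene whose loss causes the arterial narrowing of Williams-Beuren syndrome, there were 5, 4 and 4 peaks with highest folds of 14.3, 17.1 and 6.70. The small heat-shock protein gene HSPB1 had 1 peak per list with folds of 17.6, 13.7 and 10.8. GTF2I, a transcription factor gene with copies flanking the deletion, had highest folds of only 7.09, 5.69 and 4.32. GTF2IRD1, its related neighbour, had 13.81, 12.29 and 11.98.

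In 15q13, 10 of 12 genes had a shared region, while KLF13 and GREM1 had no peak inside the block. APBA2, which encodes a neuronal adaptor protein, had the most peaks of any listed gene, at 12 (D3), 10 (E4) and 10 (WT), of which 9 regions were shared by all 3. CHRNA7, the alpha-7 nicotinic receptor gene, had 4, 1 and 3 peaks and highest folds of 8.19, 8.68 and 7.30. OCA2, of melanosome pH, had 8, 2 and 4 peaks, and TRPM1, a retinal channel gene, had 6, 1 and 2. At these 3 genes E4 had the fewest calls.

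In 16p12, 5 of 6 genes had a shared region. EEF2K, the kinase that slows translation elongation, had highest folds of 20.2, 17.7 and 14.2 in D3, E4 and WT, and shared its E4 site with its neighbour POLR3E. In 1q21 it was 8 of 11, and FCGR1A, a high-affinity antibody receptor gene, had highest folds of 27.9, 21.8 and 11.3. TXNIP, GJA5 and SV2A had no peak there. In distal 8p23 the genes with a shared region were SPAG11B and DEFB4A, a beta-defensin gene with folds of 12.21, 15.72 and 8.60, while DEFA1 and DEFB103B had none. In 1p36 NBPF1, MST1L and CROCC had shared regions and MFAP2 had no peak inside the block.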

How the data were processed

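CTCF chromatin immunoprecipitation was sequenced from 1 library each of WT, D3 and E4 HCT-116 cells. Per the submitters' processing notes, the tools were CASAVA 1.8.2, Picard 2.23.1, MACS2 2.2.7.1 and bedtools 2.29.2 with build hg19; the aligner and the handling of reads that fit several places are not given in the sources used here. Deposited broad peak lists give each peak a fold enrichment (ratio to the caller's background), a −log10 q value and a score. The score deposited by the authors is 10 times the −log10 q, truncated, in nearly all peaks, so it was not used separately. Every listed peak passed the authors' −log10 q threshold of 1.

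Python 3.11.15 with numpy 2.4.6, pandas 2.3.3, scipy 1.17.1 and matplotlib 3.10.9 was used. Peaks were assigned to windows by midpoint, ranked within their list (ties averaged) and called shared with 1 bp of overlap. The density elsewhere used the span between the first and last peak of each chromosome, less the windows. Intervals at 95% are exact Poisson, exact Clopper-Pearson or, for medians, order-statistic ones. Depth is unknown, so folds are not set against each other as amounts of binding. The counting steps were tested on simulated data.

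Sites named in the text are, by rule, the 5 members of highest fold and the 3 widest of each list, the strongest shared region of each block, the 3 strongest of WT alone, the 5 strongest of both clones without WT and the 3 largest rank differences each way; listed genes are named as examples. Some genes and sites that these rules pick are not reported here. The windows, gene lists and rules were chosen with earlier results of these data known. Duplicon-rich stretches and gene windows come from general knowledge of hg19 and are approximate. The blocks on 8p23.1 were not part of the promoter search. Alternatives covered the threshold, equal list lengths, the overlap rule, the ranking value, the blocks included and the density outside them.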

Additional observations from a re-analysis of the deposited data

Results flagged for a closer look

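In a pair of blocks the median rank difference of the regions called in all 3 lists lay on opposite sides of WT in the clones. In the 7q11 block, WT minus D3 was 0.568 percentile points and WT minus E4 was −0.675 over 78 regions. In the 16p12 block the values were 0.382 and −3.27 over 24 regions. The intervals of all 4 medians included 0, both clones were set against the same WT library, and no test was made of D3 against E4.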

How the results depend on the processing

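Of 87 alternatives to 22 results, 62 left the value within set limits and 25 moved it. The limits were the main interval for ratios, shares and medians, and a fixed factor of change for counts. A count among the 62 could thus lie outside its counting error. D3 members, for example, went from 845 to 590 with −log10 q of 5 or more and to 588 at equal list length. Some values changed side. In duplicon-rich stretches the width ratio went from 1.05 to 0.974 (D3), 1.04 to 0.969 (E4) and 1.06 to 0.993 (WT). There the median rank difference WT minus E4 went from −0.472 to 0.360. Ranked by fold, WT minus D3 went from 0.149 to −0.051. The main intervals of these ratios reached 1 and those of these differences included 0, so their directions were not established. With duplicon-rich stretches only, the density ratio was 1.07 in D3, 1.12 in E4 and 1.09 in WT, the width ratio was 0.974 in D3 and 0.993 in WT, and the E4 share in the top 1% was 5.42%. Against flanks of 2 Mb, added after seeing the data, the density ratios were 1.18, 1.26 and 1.20; without the 1q21 block the D3 ratio was 1.48. With the top 100 peaks in place of the top 1%, the shares of members were 1.30%, 1.51% and 1.01%, where the top 100 are 0.173%, 0.254% and 0.259% of the lists, so that members were 7.54, 5.95 and 3.90 times as frequent there as in the list. With −log10 q of 5 or more, WT had 342 members and a density ratio of 1.56, D3 overlapped 98.8% and E4 93.3% of them, 3 were missing from both clones and 315 regions were in all 3 lists. At that threshold the WT density in duplicon-rich stretches was 1.20 times that elsewhere (interval 1.02 to 1.41). At equal list lengths D3 overlapped 86.5% and E4 86.7%, 53 WT members were missing from both clones and 34 regions were in both clones without WT. With 50% coverage required, D3 overlapped 94.4% and E4 82.8%, and 30 were missing from both. Fewer peaks were compared at the higher threshold and at equal list lengths; otherwise the cause was not tested.

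No paired analysis was possible because each group has a single library, numbered 1, and no comparison between replicates exists. Leaving out a replicate was likewise not run, since no group has a second library. The unknown depth limits every comparison of lists: a site absent from a list was not called at that depth.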
